A study of Mus musculus with 33 samples.

Results

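Horizontal basal cells are the flat stem cells that lie on the basal lamina of the olfactory epithelium, and 7 genes that mark them were followed here: Krt5, Krt14, Krt15, Trp63, Itgb4, Icam1 and Sfn. They were taken by symbol from both expression tables, which list them as ENSMUSG00000061527, ENSMUSG00000045545, ENSMUSG00000054146, ENSMUSG00000022510, ENSMUSG00000020758, ENSMUSG00000037405 and ENSMUSG00000047281. All 7 had a row among the 14613 genes of the whole main olfactory epithelium (MOE), and 6 had one among the 14744 genes with values in sorted mature olfactory sensory neurons (mOSN), where Krt15 was not listed. All animals were mice of 3 weeks. They carried no null allele (WT), 1 null allele (Het, heterozygous-null) or only null alleles (KO, homozygous-null) of Dnmt3a, the gene of an enzyme that sets new DNA methylation. RNA depleted of ribosomal RNA was sequenced from 1 MOE library for each genotype and treatment. The treatment was 60 min, after 10 min in a clean cage, with a paper that held 80 µL of liquid, either plain water or octanal, amyl acetate and acetophenone in equal amounts (odor below). Water and odor animals sat in separate cages. The mOSN were isolated by fluorescence-activated sorting from animals labelled with no treatment, and the table gives 1 value per genotype, for which the labels list 2 libraries. The labels name neither the part of Dnmt3a that was removed nor the animals behind a library.

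Horizontal basal cells rarely divide in the undisturbed nose and act as a reserve, rebuilding neurons and supporting cells after injury. Keratin 5 and keratin 14, from Krt5 and Krt14, pair to form their intermediate filaments, and Krt15 encodes another keratin of basal cells in many stratified epithelia. Trp63 encodes p63, the transcription factor that holds these cells in the basal state. Itgb4 encodes integrin beta 4, which anchors them to the basal lamina through hemidesmosomes. Icam1 encodes an adhesion molecule used to sort these cells, which is also found on endothelium and is induced by inflammatory signals. Sfn encodes 14-3-3 sigma, an epithelial adaptor protein and a known target of p53. Basal cells of respiratory epithelium, squamous epithelium and glandular myoepithelium share several of these genes, so in whole tissue the genes do not belong to one cell type alone. Fewer cells of a type and less RNA per cell cannot be told apart in such libraries.

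Promoter sequences, of 250 bases before and 50 after the start, matched 4 of the 7 genes in RefSeq (GRCm38.p6). Only the 3 whose start is the outer end of the gene are shown. They are Krt5, of the keratin and p63 group, Sfn, the gene with the largest odor difference, and Icam1, the gene with the fewest reads. They lie at chr15:101712856-101713155 (minus strand), chr4:133602119-133602418 (minus strand) and chr9:21015690-21015989 (plus strand).
Krt5: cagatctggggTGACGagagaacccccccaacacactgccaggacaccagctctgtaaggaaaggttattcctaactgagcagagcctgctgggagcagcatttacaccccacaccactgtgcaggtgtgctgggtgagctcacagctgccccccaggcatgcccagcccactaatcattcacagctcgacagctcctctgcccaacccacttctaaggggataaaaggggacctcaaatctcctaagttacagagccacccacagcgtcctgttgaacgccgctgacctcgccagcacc
Sfn: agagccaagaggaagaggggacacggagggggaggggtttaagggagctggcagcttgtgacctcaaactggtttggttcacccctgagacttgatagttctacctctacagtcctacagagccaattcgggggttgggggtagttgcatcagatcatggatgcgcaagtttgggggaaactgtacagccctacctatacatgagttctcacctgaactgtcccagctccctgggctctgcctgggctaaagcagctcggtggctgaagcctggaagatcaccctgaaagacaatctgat
Icam1: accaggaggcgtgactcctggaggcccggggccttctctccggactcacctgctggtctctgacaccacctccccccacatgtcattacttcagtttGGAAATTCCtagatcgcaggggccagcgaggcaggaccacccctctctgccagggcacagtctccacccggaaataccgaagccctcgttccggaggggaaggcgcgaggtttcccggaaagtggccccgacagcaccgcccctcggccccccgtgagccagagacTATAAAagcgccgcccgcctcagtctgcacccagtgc
Capitals mark matches, on either strand, to 6 motifs. A core promoter motif was searched as TATAAA, the AP-1 site as TGANTCA, part of the cyclic AMP response element as TGACG, and a form of the NF-kappa B site as GGANNTTCC. The CArG box of serum response factor and the paired core of p53-family sites were also searched. No matches to different motifs overlapped in these windows. Krt5 held TGACG from base -239 to -235, a motif that 20.8% of the 32851 promoters of this length hold. Icam1 held GGANNTTCC from -153 to -145, which 4.26% hold, and TATAAA from base 14 to 19 after the start, which 13.6% hold. Sfn held none of the 6. The CG dinucleotide, the site of most DNA methylation, occurred 19 times in the Icam1 window, 6 times in that of Krt5 and 4 times in that of Sfn, with a median of 7 over all promoters. A match describes letters in a window and not a bound site.

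All values are deposited RPKM-scale values, which are scaled by gene length and library depth. Whole reads behind the MOE values were recovered for each gene, up to a divisor shared by its 6 counts, and totalled 9410063 to 17639584 per library. The targeted gene Dnmt3a was at 84.4 (water) and 89.0 (odor) in WT libraries, at 50.3 and 66.6 in Het libraries and at 56.1 and 48.3 in KO libraries, and at 175, 120 and 56.2 in WT, Het and KO mOSN. Several libraries stood apart in the summed RNA level of cell type markers. The summed level of 10 mature neuron markers was 9839 and 5641 in Het water and odor, against 17471 to 26812 in the other 4 libraries. The summed level of 7 bone markers, led by Col1a1, Ibsp and Bglap, was 2078 in KO odor and 6277 to 9434 in the other 5.

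The label was first checked against the sorted neurons, in which basal cell genes should be scarce. The mOSN and MOE tables were normalized separately, so levels across them are set side by side without a test, and the rank of a gene within its own table is given too. Krt5 was 2.88 in WT mOSN and 72.5 and 88.4 in WT MOE (water and odor), a ratio of 27.9 for the MOE mean over mOSN. Krt14 was 1.75 against 24.3 and 55.2, and Trp63 was 1.02 against 18.2 and 24.4, ratios of 22.7 and 20.9. These 3 genes, which define the basal state, stood at the 11.8, 5.69 and 1.67 percentile of the WT mOSN values, near the bottom of the table. In Het mOSN they stood at the 23.6, 14.2 and 0.814 percentile, and in KO mOSN at the 43.2, 40.6 and 6.19 percentile, so that Krt5 and Krt14 were in the middle of the KO table. The WT mOSN libraries were made with another kit and from 200 ng of RNA, against 100 ng for MOE and KO mOSN, so for WT the kit and the cell source cannot be told apart. Itgb4 was 1.74 against 5.04 and 8.05, and Icam1 was 4.18 against 4.87 and 12.02. By the mean of water and odor, 5 of the 6 genes were at least 2-fold higher in WT MOE than in WT mOSN (Icam1 by 2.02-fold). This difference was met by 24.9% of the 13369 shared genes. In Het the same 5 genes met it (26.2% of shared genes), and in KO only Krt5 and Trp63 did (22.4%).

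Sfn went against the label. It was 90.9 in WT mOSN, above the 18.9 of WT MOE with water and below the 125 of WT MOE with odor. In Het mOSN it was 46.9 against 21.4 and 65.1, and in KO mOSN 69.2 against 21.3 and 43.8. Within the mOSN table it stood at the 70.2 percentile in WT, 56.6 in Het and 69.4 in KO. In the WT MOE library with water it stood at the 28.8 percentile. The rank of Sfn was thus higher in sorted neurons than in the water library of each genotype. Beside the odor library it was higher in KO only. Counts and sums over the 7 genes below are given with and without Sfn. By the MOE mean of water and odor, Icam1 was 2.02-fold higher in WT MOE than in WT mOSN and 3.81-fold in Het. In WT its mOSN value of 4.18 lay below the water value of 4.87 (13 reads) and the odor value of 12.02. It stood at the 17.2 percentile in WT mOSN, 8.73 in WT MOE with water and 21.1 with odor. In KO its mOSN value of 25.1 lay above both MOE values (20.0 and 8.84), a ratio of 0.576. Icam1 thus went against the label in KO, and its WT rank did so beside the water library. By the MOE mean, Itgb4 was higher in MOE in each genotype, 3.75-fold, 2.45-fold and 1.45-fold. Its percentile in Het mOSN, 9.62, lay above the 9.41 of Het MOE with water and below the 18.5 with odor. In WT and KO its mOSN percentile (5.64 and 6.27) lay below both MOE ones.

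**Figure D1:**
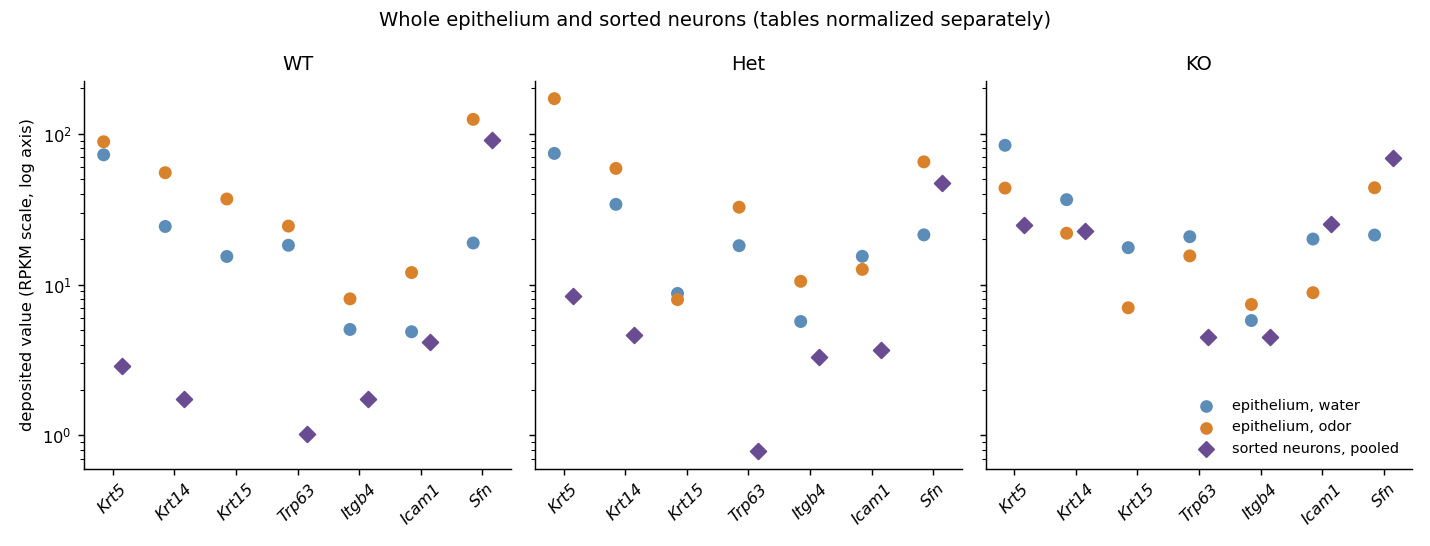
Deposited values (RPKM scale, log axis) of the 7 genes in WT, Het and KO. Circles are the MOE libraries with water (blue) and odor (orange), diamonds the authors' pooled mOSN value, and Krt15 has no diamond; in WT the Krt5, Krt14 and Trp63 diamonds (2.88, 1.75 and 1.02) lie far below the circles, while the Sfn diamond (90.9) lies between them.

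Within the MOE, Krt5 had the highest mean value over the 6 libraries, 88.9, and ranged from 43.6 to 171. Sfn (mean 49.2) and Krt14 (38.5) followed, and their ranges, 18.9 to 125 and 21.9 to 58.9, overlapped. Trp63 (21.6), Krt15 (15.6) and Icam1 (12.3) overlapped as well, and Itgb4 was lowest at 7.07, from 5.04 to 10.5. Krt5 exceeded its partner Krt14 in all 6 libraries, by 1.6-fold in WT odor to 2.98-fold in WT water. In Het mOSN this ratio was 1.82, and in KO mOSN 1.1. Neighbours in this order of mean values were not separated by their spread over libraries. The order also rests on the gene lengths used for scaling, which the sources used here do not give, as do the ranks within a table. By recovered reads, Trp63 (394 to 1249) was above Krt5 (154 to 909) in every library, and Itgb4 (185 to 575) above Icam1 (13 to 43). Krt5, Krt14 and Trp63 followed each other across the libraries (Pearson r of log2 values over 6 libraries 0.96 for Krt5 with Trp63, 0.92 for Krt14 with Trp63 and 0.85 for Krt5 with Krt14). Krt15 had lower correlations with them (0.09 with Krt5, 0.19 with Trp63 and 0.37 with Krt14). Itgb4 was closest to Sfn (0.82), and Icam1 was at 0.52 or less with every other member. Libraries, depth and tissue makeup are shared by all of these pairs, and the values are a description.

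**Figure D2:**
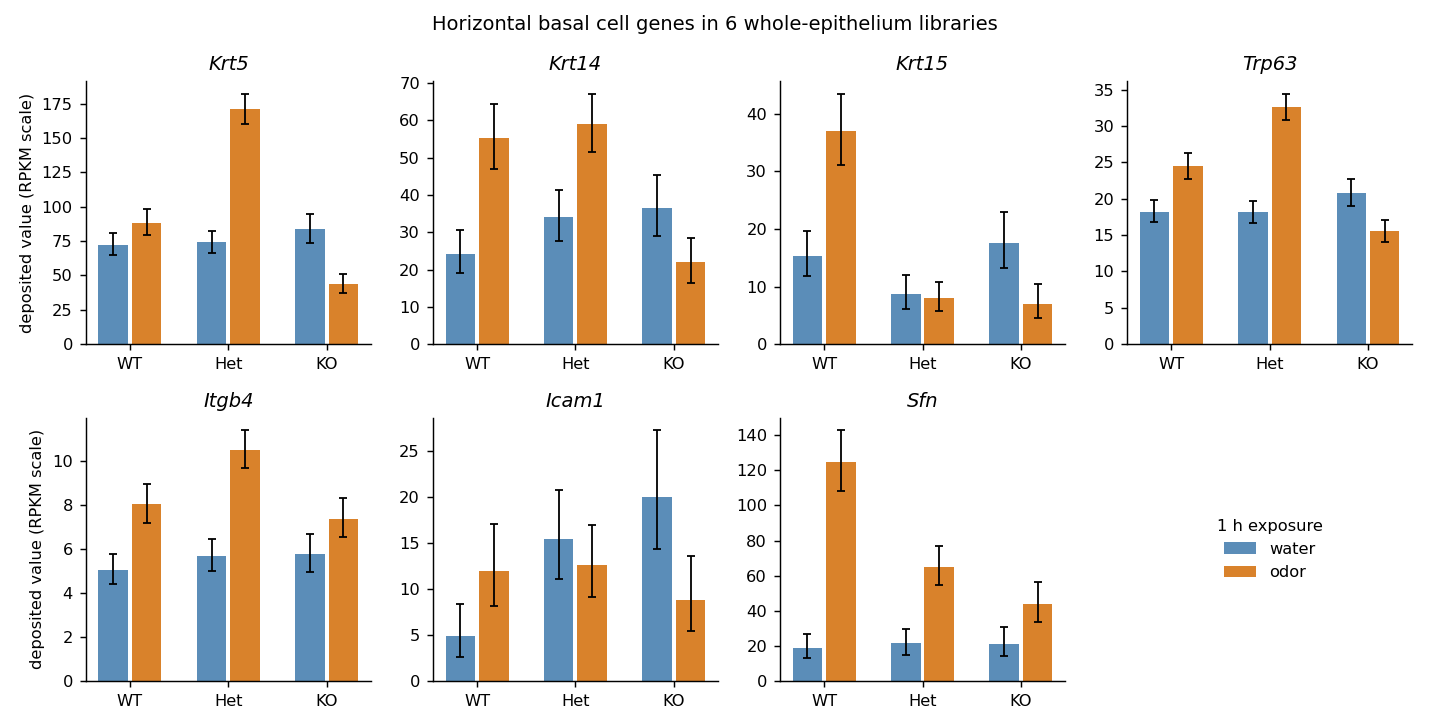
Deposited value (RPKM scale, from 0) of each of the 7 genes in the 6 MOE libraries, 1 bar per library, blue for water and orange for odor. Error bars are exact 95% Poisson intervals of the recovered reads and cover counting error only; Sfn is higher with odor in all 3 genotypes, while Krt5, Krt14, Krt15 and Trp63 have their lowest bar in KO odor.

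The first comparison asks what odor exposure changed in these genes. In WT, Krt5 was at 72.5 in the water library and 88.4 in the odor library, in Het at 74.0 and 171, and in KO at 83.8 and 43.6. Krt14 was 24.3 and 55.2 in WT, 34.0 and 58.9 in Het and, for KO, 36.5 and 21.9. Trp63 was 18.2 and 24.4 in WT, 18.1 and 32.6 in Het and, for KO, 20.8 and 15.5. For all 3, the odor library was the higher one in WT and Het and the lower one in KO, so odor and water values overlapped. Over all genes tested, odor was higher in WT for 49.5%, higher in Het for 52.5% and lower in KO for 47.1%; of the 7 genes it was higher in WT for 7 and in Het for 5, and lower in KO for 5. Without Sfn these counts were 6, 4 and 5 of 6. The log2 differences of Krt5, Krt14 and Trp63 over the 3 genotypes, as odor minus water on the log2(value + 0.5) scale with limma's standard error, were 0.18 ± 0.40, 0.41 ± 0.40 and 0.28 ± 0.32. None passed limma's two-sided test over all 14602 genes tested (adjusted p = 0.958, 0.893 and 0.904). Leaving out 1 genotype's pair moved these differences from -0.32 (without Het) to 0.74 (without KO) for Krt5, from 0.028 (without WT) to 0.98 (without KO) for Krt14 and from 0.00044 (without Het) to 0.62 (without KO) for Trp63.

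Itgb4 and Sfn were higher with odor in each genotype, as were 15.6% of all genes tested. Itgb4 was 5.04 and 8.05 in WT, 5.69 and 10.5 in Het and, for KO, 5.78 and 7.38, a log2 difference of 0.59 ± 0.32. Sfn was 18.9 and 125 in WT, 21.4 and 65.1 in Het and, for KO, 21.3 and 43.8, a log2 difference of 1.77 ± 0.35. For both genes every odor library lay above every water library, a pattern that 7.77% of all genes tested had. The 3 water values of Sfn lay within 18.9 to 21.4, and the genotypes differed mainly in the odor value. Sfn had an unadjusted p = 0.00275, and 3.01% of all genes tested were higher at an unadjusted p under 0.05. Neither gene passed (limma adjusted p = 0.882 for both), and over 11 alternative settings the adjusted p of Sfn ranged from 0.353 to 1.

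Krt15 and Icam1 had a negative odor estimate over the 3 genotypes, as 49.9% of all genes did, while the other 5 had a positive one (50.1%). Krt15 was 15.4 and 36.9 in WT, 8.73 and 7.95 in Het and, for KO, 17.6 and 7.02, with a log2 difference of -0.05 ± 0.51. Icam1 was 4.87 and 12.02 in WT, 15.4 and 12.6 in Het and, for KO, 20.0 and 8.84, with a log2 difference of -0.06 ± 0.49. Both were higher with odor in WT and lower in KO, and in Het their odor and water libraries lay within counting error of each other. Icam1 rested on 13 to 43 reads per library and Krt15 on 24 to 144, against 154 to 909 for Krt5 and 394 to 1249 for Trp63. Without the KO pair both estimates turned positive, 0.56 for Krt15 and 0.47 for Icam1, and neither passed (limma adjusted p = 0.701 and 0.766). Over all genes, limma called 2 genes for odor against water (0.0137%), none of them among the 7.

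Counting error was set beside these pairs of libraries. In WT the odor over water ratio was 1.22 for Krt5 (exact 95% counting interval 1.04 to 1.43), 2.27 for Krt14 (1.71 to 3.05), 2.4 for Krt15 (1.77 to 3.29) and 1.34 for Trp63 (1.2 to 1.5). Sfn had the highest ratio in WT, 6.6 (4.53 to 9.91), and lower ones in Het (3.05, 2.11 to 4.5) and KO (2.06, 1.292 to 3.36). In KO the ratio was 0.52 for Krt5 (0.424 to 0.638), 0.599 for Krt14 (0.417 to 0.854), 0.399 for Krt15 (0.236 to 0.658), 0.746 for Trp63 (0.65 to 0.855) and 0.441 for Icam1 (0.244 to 0.772). The Het ratios of Krt15 (0.911, 0.568 to 1.47) and Icam1 (0.819, 0.522 to 1.28) did not differ from 1 beyond counting error. These intervals, from a Clopper-Pearson interval on the 2 read counts, compare 2 libraries and not 2 conditions, since they hold no variation between animals.

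**Figure D3:**
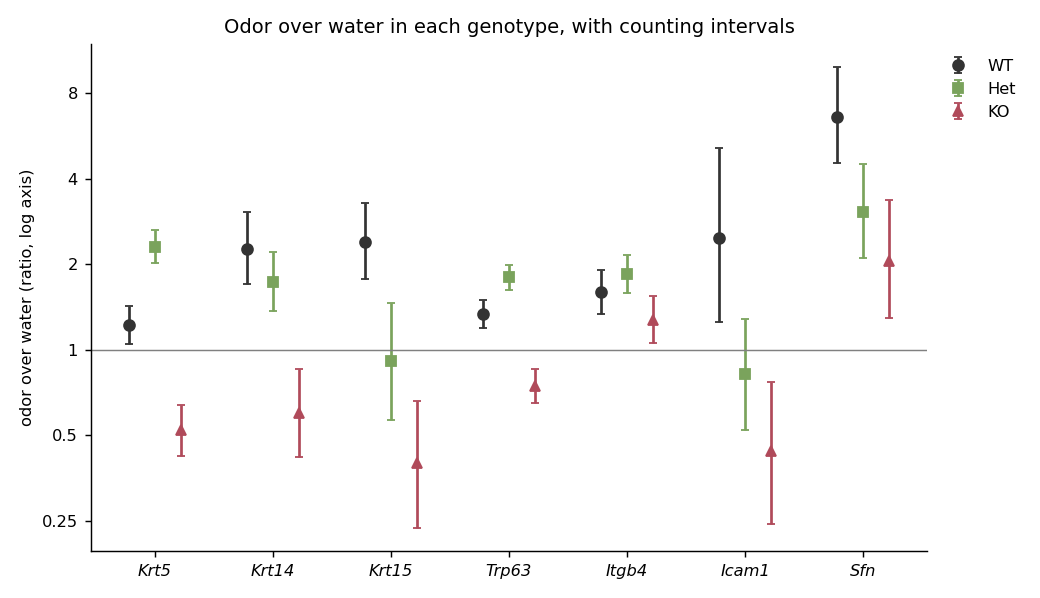
Odor over water ratio (log axis) of each gene in WT (circles), Het (squares) and KO (triangles), 1 pair of libraries each. Bars are 95% counting intervals; the KO triangles of Krt5, Krt14, Krt15, Trp63 and Icam1 lie below 1, and all 3 Sfn points lie above 1.

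The next comparison asks whether the odor effect differed without Dnmt3a. Krt5 had odor minus water differences (log2) of 0.29, 1.20 and -0.93 in WT, Het and KO, and Krt14 of 1.17, 0.78 and -0.73. Trp63 had 0.41, 0.83 and -0.41, in the order of Krt5 with smaller steps. With the odor effect in WT and Het taken as common, the KO effect minus the common effect (log2) was -1.68 ± 0.49 for Krt5, -1.70 ± 0.47 for Krt14 and -1.03 ± 0.56 for Trp63. The unadjusted p was 0.0163, 0.0129 and 0.117, and no gene passed over all genes (limma adjusted p = 0.563, 0.551 and 0.771). Limma called 0 of 14602 genes for this difference (0%). An unadjusted p under 0.05 was reached by 491 genes with a lower KO effect (3.36%) and 548 with a higher one (3.75%), and voom on the recovered reads also called 0.

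Among the other genes the difference was -1.82 ± 0.80 for Krt15, -1.61 ± 0.85 for Icam1, -1.11 ± 0.60 for Sfn and -0.40 ± 0.75 for Itgb4 (limma adjusted p = 0.733, 0.77, 0.771 and 0.937). All 7 estimates were negative, as were 50.3% over all genes (49.7% were positive), and their median was -1.61 (-1.64 without Sfn) beside -0.0041 for all genes. Since the genes shared 3 pairs of libraries, the 7 directions are not separate observations. The pattern of Krt5, Krt14 and Trp63, higher with odor in WT and Het and lower in KO, was met by 14.9% of all genes. Against WT alone the differences were -1.22 for Krt5, -1.89 for Krt14 and -0.82 for Trp63, and against Het alone -2.14, -1.51 and -1.24.

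The comparison of genotypes kept water and odor libraries as blocks. KO minus WT (log2) was -0.40 ± 0.49 for Krt5, -0.37 ± 0.48 for Krt14, -1.06 ± 0.62 for Krt15, -0.23 ± 0.39 for Trp63, 0.03 ± 0.40 for Itgb4, 0.76 ± 0.61 for Icam1 and -0.66 ± 0.43 for Sfn. None passed (limma adjusted p = 1 for each), limma called 0 genes (0%), as did voom, and unadjusted p values under 0.05 were found for 1.27% on the higher and 0.966% on the lower side, and in no member did both KO libraries lie above both WT libraries (12.4% of all genes) or below them (13.3%). Of the 7, 5 were negative and 2 positive, beside 51.5% and 48.5% of all genes. With water alone all 7 genes were higher in KO, by 0.17 to 1.94, and with odor alone all 7 were lower, with differences of -0.12 to -2.32. Over all genes tested, 49.1% were higher in KO with water, 49.9% were lower with odor, and 28.9% did both. The estimates over both treatments thus average opposite signs. Icam1 gave the largest difference with water, 4.87 in WT and 20.0 in KO, on 13 and 40 reads.

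Het minus WT was 0.49 ± 0.49 for Krt5, 0.29 ± 0.48 for Krt14, 0.20 ± 0.39 for Trp63, 0.26 ± 0.40 for Itgb4 and -0.38 ± 0.43 for Sfn. With Icam1 and Krt15, 5 of the 7 were positive and 2 negative, beside 52.6% and 47.4% of all genes. Krt15 stood out with -1.46 ± 0.62, both Het libraries (8.73 and 7.95) lying below both WT libraries (15.4 and 36.9), as did 18% of all genes. Icam1 was the other way, at 0.82 ± 0.61, with both Het libraries (15.4 and 12.6) above both WT libraries (4.87 and 12.02), as did 19% of all genes. None of the 7 passed (limma adjusted p from 0.706 for Krt15 to 0.9 for Trp63), and limma called 0 genes (0%), as did voom, with unadjusted p values under 0.05 for 2.71% on the higher and 3.99% on the lower side. Both genotype comparisons share the WT libraries.

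In the sorted neurons the listed genes other than Sfn had their highest value in KO. Across WT, Het and KO, Krt5 was at 2.88, 8.38 and 24.9, and Krt14 at 1.75, 4.6 and 22.6. Icam1 was 4.18, 3.67 and 25.1, Trp63 was 1.02, 0.789 and 4.49, and Itgb4 was 1.74, 3.31 and 4.52. The KO value of these 5 genes was 2.59-fold (Itgb4) to 12.9-fold (Krt14) above WT. Sfn was 90.9, 46.9 and 69.2, or 0.762 of WT in KO. With 1 pooled value per genotype there is no replicate check and no test.

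These differences met a background of the same direction. Over all 14744 genes, 19.3% were at least 2-fold higher in KO than in WT mOSN and 3.07% at least 2-fold lower. All 5 genes had WT values from 1 to under 5, and among the 2667 genes in that range 70% were at least 2-fold higher in KO. In Het, Krt5 and Krt14 were at least 2-fold higher than in WT, as were 8.47% of all genes and 29.1% of the genes in that range. ScriptSeq and 200 ng of RNA were used for both WT mOSN libraries, NuGEN and 100 ng for both KO libraries, and 1 of each for Het, so kit and genotype cannot be told apart. Sums of several other marker lists were higher in KO too, though not every gene in them. The summed mOSN level in WT, Het and KO was 458, 607 and 703 for 9 sustentacular markers, 20.9, 28.0 and 52.1 for 5 endothelial markers and 53.9, 68.3 and 77.7 for 5 macrophage and neutrophil markers. At least 2-fold higher in KO were 4 of the 9, 3 of the 5 and 2 of the 5, while Cyp2g1 (132 in WT and 80.9 in KO) and C1qa (16.7 and 5.89) were lower and Cbr2 (56.2 and 55.3) was level, all 3 named after their values were seen. Respiratory markers summed to 541, 623 and 498, most of it Foxj1 (531, 610 and 465), with 3 of 4 at least 2-fold higher in KO. Mature neuron markers summed to 90824, 85333 and 62279. The part of these cells in the basal gene values was not tested.

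Other genes linked to basal cell biology, not all of them particular to these cells, were taken from lists. None of their members passed in any of the 4 MOE comparisons. Of 12 other hemidesmosome and basement membrane genes, all 12 had a positive odor estimate (median log2 0.30, beside 0.00073 for all genes). Those with the highest mean values were Itgb1, the common beta 1 integrin (0.15 ± 0.13), Cd151, a tetraspanin that binds laminin-binding integrins (0.31 ± 0.27), and Dst, which encodes dystonin, a linker of keratin to hemidesmosomes (0.02 ± 0.19). Of 10 desmosome and adherens junction genes, all 10 had a positive odor estimate (median 0.49), with Dsp, encoding desmoplakin, at 0.44 ± 0.14, Jup, encoding plakoglobin, at 0.53 ± 0.22 and Perp at 0.12 ± 0.26. Positive estimates made up 50.1% of all genes. Set side by side with no test, Dst was 130 in WT mOSN against 88.9 and 77.4 in WT MOE (water and odor). Its MOE value is therefore not one of basal cells alone. Itgb1, Cd151, Dsp, Jup and Perp were lower in WT mOSN than in both WT MOE libraries, Jup at 138 against 173 and 235. The odor effect in KO was lower for 8 of the 12 (median -0.19) and 7 of the 10 (median -0.14), beside a median of -1.61 for the 7 genes (-1.64 without Sfn).

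Among 8 other keratins, 6 had a positive odor estimate (median 0.46). Krt8 and Krt18, the keratin pair of simple epithelia and sustentacular cells, were at 0.74 ± 0.20 and 0.72 ± 0.24, and Krt19 at -0.02 ± 0.27. Krt8 was 539 and 1163 in WT, 576 and 1025 in Het and, for KO, 568 and 689, higher with odor in each genotype. In KO the odor effect was lower for 7 of the 8 (median -0.66). Of 10 genes around p63, Notch and EGF signaling, all 10 had a positive odor estimate (median 0.33), with Hes1, a Notch target, at 0.69 ± 0.22 and Jag2, a Notch ligand, at 0.38 ± 0.15. Jag2 was 281 in WT mOSN, above its WT MOE values of 202 (water) and 256 (odor), while Hes1 was 23.8 against 107 and 252.

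The lists around Icam1 and Sfn were read in the same way. All 9 NF-kappa B target genes had a positive odor estimate (median 0.28). Nfkbid, an inhibitor of NF-kappa B, was 7.24 and 36.9 in WT, 5.96 and 18.8 in Het and, for KO, 8.92 and 30.8 (1.86 ± 0.29, limma adjusted p = 0.819). Vcam1, an endothelial adhesion molecule, was at 0.94 ± 0.23 and Nfkbia at 0.28 ± 0.20. Their odor effect was higher in KO for 6 of the 9 and lower for 3 (median 0.15). Among 9 targets of p53, the factor known to induce Sfn, 4 estimates for odor were positive and 5 negative (median -0.25), with Cdkn1a at 0.11 ± 0.39, Ccng1 at -0.25 ± 0.18 and Plk2 at 0.09 ± 0.18. Of the other 14-3-3 genes, which unlike Sfn are made in most cells, Ywhab was at -0.02 ± 0.19, Ywhae at 0.03 ± 0.15 and Ywhaq at -0.16 ± 0.15, and 3 of the 6 were positive (median 0.0047). The median over 6 other ICAM and leukocyte integrin genes was 0.48, on low levels such as 2.85 to 12.6 for Itgb2, a leukocyte integrin chain.

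Marker sums of other cell types varied over these libraries as well. The summed level of the 7 genes was 159 and 350 in WT (water and odor), 177 and 358 in Het and, for KO, 206 and 148. Without Sfn it was 140 and 225, 156 and 293, and 185 and 104. The 9 sustentacular markers, led by Cbr2, Cyp2g1 and Sult1c1, summed to 24037 and 34610.5 in WT, 28116 and 34305 in Het and, for KO, 29703 and 26260.5, so that odor was the higher library in WT and Het and the lower one in KO here as well. For 8 of the 9, the KO odor effect was the lower one (median -0.69). The 9 macrophage and neutrophil markers, led by S100a8 and S100a9, summed to 2017 and 3910, 4273 and 7098, and 3822 and 3699, and the KO odor effect was lower for all 9 (median -1.23). The 7 bone markers summed to 6277 and 7565, 6976 and 9434, and 8987 and 2078, and it was lower for all 7 (median -1.69).

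Tissues that share basal keratins were looked at too. Respiratory markers, 6 of 11 listed, summed to 1408 and 2237 in WT, 1887 and 1909 in Het and, for KO, 2250 and 1557, with 5 of 6 lower in KO (median -1.02), and Scgb1a1 was not listed. Squamous and skin markers, 6 of 12 listed, summed to 377 and 240 in WT, 240.5 and 215 in Het and, for KO, 209 and 232, with 5 of 6 lower (median -0.76). Of these squamous and skin markers, Lor, Flg, Krt4 and Krt13 were among those not listed. Myoepithelial and smooth muscle markers, 6 of 7 listed, summed to 1832 and 2068, 2326 and 3232, and 2286 and 1542, all 6 with a lower odor effect in KO (median -0.52). Enamel and tooth markers, 6 of 9 listed, had a median of -4.84, resting on genes such as Ambn, an enamel matrix protein, at 35.5 and 680 in WT, 31.7 and 12.9 in Het and, for KO, 116 and 2.43. Endothelial markers, which bear on Icam1, summed to 144 and 85.8, 107 and 180, and 129 and 136, with 3 of 7 lower in KO. Markers of globose basal cells and dividing progenitors, the next stage of the lineage, summed to 1288 and 1007, 1124 and 1608, and 917 and 1077, with 6 of 10 lower in KO (median -0.15). Mature neuron markers went the other way, all 10 with a higher odor effect in KO (median 0.79). The part of these cell types in the values of the 7 genes was not tested.

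**Figure D4:**
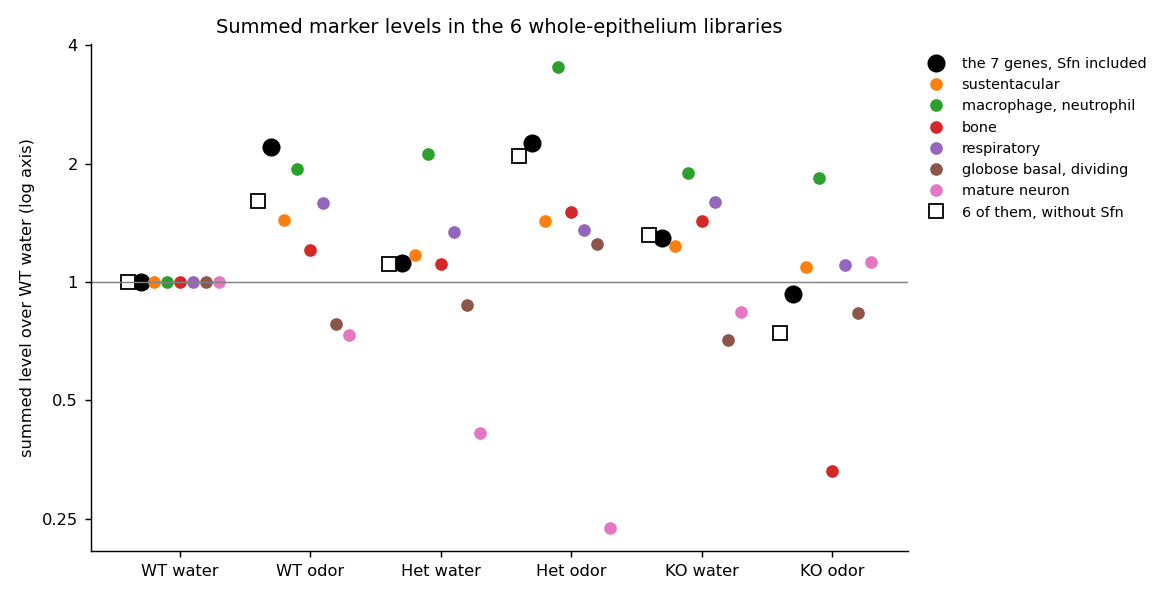
Summed deposited values of the 7 genes and 6 marker lists in the 6 MOE libraries, each divided by its sum in WT water (log axis). The 7 genes (large black points) stand at 2.2 in WT odor, 2.25 in Het odor and 0.931 in KO odor, and without Sfn (open squares) at 1.6, 2.09 and 0.743; bone markers drop to 0.331 in KO odor, and mature neuron markers to 0.413 and 0.237 in the Het libraries.

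The genes most like the group were found by the Pearson correlation over the 6 MOE libraries with the mean centred log2 profile of the 7 genes, Sfn included. That profile was -0.46 and 0.63 in WT (water and odor), -0.23 and 0.46 in Het, and 0.03 and -0.42 in KO. Of the members themselves Krt14 was closest to it (r = 0.96), then Trp63 (0.86), Sfn (0.79) and Krt5 (0.72), and Icam1 was farthest (0.46). Among 2900 other genes with a mean value of at least 5 and a log2 SD of at least 0.5, the 10 most alike were Kcnj8 (0.996), Wtip (0.98), F5 (0.98), Cyp1a2 (0.97), Oplah (0.97), Bag3 (0.96), Klf10 (0.96), Spry4 (0.95), Klf16 (0.94) and Gatsl3 (0.94). With Krt5 alone the same 10 genes had lower correlations, from 0.55 (Bag3) to 0.80 (Klf16). Cyp1a2, a detoxifying enzyme of sustentacular cells, was 673 and 1502 in WT, 802 and 1491 in Het and, for KO, 873 and 762. Bag3, a co-chaperone induced by stress, was 73.4 and 215, 83.7 and 161, and 108 and 94.9. Kcnj8, a potassium channel subunit, was 2.17 and 10.3, 3.4 and 8.51, and 5.23 and 2.56. With 6 libraries and 2900 genes, correlations of this size describe the libraries and carry no test.

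Some of these values can hold reads of other genes. Itgb4 overlaps Galk1 and the noncoding B230344G16Rik in RefSeq, Trp63 overlaps the small RNA gene Gm24928, and the sources used here do not say that counting used strand. Krt5 and Krt14 belong to families with similar sequences, so reads in shared stretches could have been assigned to relatives.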

How the data were processed

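RNA was measured in 6 MOE libraries and 6 mOSN libraries (3 pooled columns), and the other samples were not analysed here. The authors deposited values named RPKM for both. Tools named in the submitters' processing notes are featureCounts, STAR 2.3.0, DESeq, Bowtie2 2.1 and Picard 1.64, and builds mm9 and NCBIM37, with no role or order. The normalization formula and the pooling are not given in the sources used here. Reads were recovered for 14613 genes (100%) as whole numbers within 1e-05 reads, and the method was checked on simulated data. The median gene had 222 to 396 reads per library, and counting intervals are exact at 95%.

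A gene was kept if 2 columns reached 0.5 (14602 genes), taken as log2(value + 0.5), and fitted with limma 3.58.1 in R 4.3.3 (two-sided moderated test with trend, Benjamini-Hochberg over all genes, threshold 0.05), which was tested on simulated data. The odor fit blocked on genotype and the genotype fits on treatment, each leaving 2 residual degrees of freedom. The KO odor effect left 1, with WT and Het assumed to respond alike. The 3 genotypes or 2 treatments stood in for replicates, so a p-value reflects spread among single libraries, which may be technical. In the odor and genotype fits this spread is the variation of the odor difference between genotypes. The KO odor effect draws on the same variation, so these fits are not separate evidence. mOSN values were set side by side with no test, as each genotype has 1 value.

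The members and lists were chosen with earlier results of these data known. In each list, the 3 genes with the highest MOE mean and any past the threshold could be named. The value of 1 such gene is not reported here. Markers absent from a table were named after the tables were seen. Alternatives were the pseudocount (0.1 and 2), no filter, other scalings, voom on reads, no trend, no block, other reference genotypes and leaving out libraries.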

Additional observations from a re-analysis of the deposited data

Results flagged for a closer look

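Krt5, Krt14 and Trp63 were marked because the WT and Het pairs of libraries differed in one direction with odor and the KO pair in the other. The KO odor effect minus the common effect in WT and Het was -1.68 for Krt5, -1.70 for Krt14 and -1.03 for Trp63 (log2), and none passed limma's test over all genes (adjusted p = 0.563, 0.551 and 0.771). The same combination of directions was met by 14.9% of all genes tested, and each genotype had 1 library per treatment.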

How the results depend on the processing

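No member passed in any comparison under any alternative that gave a test. The number of genes called for odor against water was 2 in the main analysis. It was 1 with median-ratio scaling, 6 with voom on recovered reads, 0 without the mean-variance trend and 1 without the genotype block, and ranged from 0 to 4 when a genotype's pair was left out (4 without WT, 0 without Het or without KO). The other 3 comparisons gave 0 genes in every setting with a test. The odor estimate of Krt5 was -0.32 without the Het pair, with 0.74 at the other end without the KO pair. That of Krt15 was 0.30 with voom, and -0.70 to 0.56 without a pair. That of Icam1 was 0.04 without the Het pair and 0.47 without the KO pair, with a lowest value of -0.71. The cause was not tested for any of these. KO minus WT from the water libraries alone and from the odor libraries alone was 0.21 and -1.01 for Krt5, 0.58 and -1.31 for Krt14, 0.19 and -2.32 for Krt15, 0.18 and -0.64 for Trp63, 0.17 and -1.50 for Sfn, 0.18 and -0.12 for Itgb4, and 1.94 and -0.42 for Icam1. Het minus WT was -0.0087 and 0.41 for Trp63, 0.18 and -0.93 for Sfn, 0.031 and 0.95 for Krt5, 0.48 and 0.093 for Krt14, 1.57 and 0.066 for Icam1, -0.78 and -2.15 for Krt15, and 0.16 and 0.37 for Itgb4. Leaving out Sfn, chosen after seeing the data, gave medians of 0.23 (odor), -0.30 (KO), 0.27 (Het) and -1.64 (KO odor effect), beside 0.28, -0.37, 0.26 and -1.61. The KO odor effect kept its sign for all 7 genes in all 9 alternatives. All of these rest on the same 1 pair of KO libraries, so they do not check that pair. In mOSN the median log2 KO over WT of 6 genes was 1.62 to 2.297 with other pseudocounts (2.08 in the main analysis). No paired analysis was possible because the mOSN table gives 1 value for the 2 numbered libraries of a genotype, and the MOE libraries carry no replicate number (the odor fit is blocked on genotype instead). Depth limits Icam1 most, with 13 reads in WT water.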
